A study of Mus musculus with 10 samples.

Results

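The genes described here carry glucose and fructose across kidney tubule cells and make glucose inside them. They were taken as the 10 symbols Slc5a1, Slc5a2, Slc5a10, Slc2a1, Slc2a2, Slc2a5, G6pc, Fbp1, Pck1 and Khk, out of 43629 genes listed in the counts, and divided into 6 sugar transporters, 3 gluconeogenic enzymes and the fructose kinase Khk. All 10 were found, and all 10 were among the 10055 genes with enough reads to test. The samples were 10 kidneys of male UM-HET3 mice, a genetically heterogeneous stock, killed at 4 months of age. The 6 control mice ate the Purina 5LG6 diet, and 4 littermates ate that diet with rilmenidine at 10 ppm, from 3 months of age and for 1 month. The study's methods count more control kidneys, and the others were not analysed here. Rilmenidine is an imidazoline drug prescribed against high blood pressure. No allele or other agent was given to either group, the labels call the kidneys biological replicates, and nothing says how the mice were housed or whether they had eaten before death. The libraries held 863605 to 2559118 counts in controls and 1813465 to 3232063 with rilmenidine, so the treated kidneys were on the whole read more deeply.

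The proximal tubule takes filtered glucose from the urine by sodium-driven carriers in the brush border, SGLT2 early and SGLT1 late, and passes it to the blood through GLUT2 and GLUT1. The same cells can make new glucose from lactate, glutamine and glycerol by way of phosphoenolpyruvate carboxykinase, fructose bisphosphatase and glucose-6-phosphatase, and the kidney shares this task with the liver during fasting. Fructose enters by GLUT5 and related carriers and is trapped by ketohexokinase, mostly in the straight part of the proximal tubule.

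The tissue label was checked against marker genes. Of the proximal tubule markers, the 10 of the early segments summed to 9398 to 11718 CPM (counts scaled to equal library size) in every kidney and the 10 of the late segment to 11720 to 19366. The extraction text of the labels speaks of liver, but the liver genes Alb and Ahsg never exceeded 20 and 8 counts. Other genes of the liver list were present, Apoh with 39 to 254 counts and Fga with 25 to 133. Cyp2e1, which the kidney also makes, carried most of the list's sum. Control 6, rilmenidine 3 and rilmenidine 4 stood apart by having under 10 CPM on olfactory and vomeronasal receptor genes, against 51.7 to 436 in the other 7 libraries. These 3 were also the most deeply read. Malat1, a long RNA kept in the nucleus, lay at 1182 to 2100 CPM in controls 1, 3, 4 and 5, at 284 and 398 in the other control kidneys, and at 306 to 394 with rilmenidine. Values with and without these libraries are given below where they alter a result. In whole kidney, fewer cells of a type and less RNA per cell cannot be told apart.

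No gene of the genome passed an adjusted p of 0.05 in edgeR's quasi-likelihood test, 0.0% of 10055 genes tested, and so none of the 10 did. At an unadjusted p under 0.05 it gave 445 genes higher and 616 lower, and DESeq2 called 60 genes at an adjusted p under 0.05, none of them a member (it gave Slc5a2 no adjusted p). The largest difference among the 10 members was that of Slc2a5, which encodes the fructose carrier GLUT5 and was 1.84-fold higher with rilmenidine. At an unadjusted p under 0.05, 2 of the 10 genes were higher, Slc2a5 and Slc5a1, against 4.43% of all genes tested, and 0 were lower, against 6.13%. The groups overlapped in all 10, whereas they were fully apart in 0.796% of all genes in the higher and 0.875% in the lower direction. The 3 gluconeogenic enzymes among the members lay near 0. Every difference below is relative to a median log2 change of 0.00 over all genes.

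The sequences just upstream of 3 of these genes are shown because Slc2a5 and Slc5a1 are the pair with the smallest p, while Pck1 is the most abundant member. They are RefSeq promoter sequence in build GRCm38.p6, read 5′ to 3′ along the gene and cut before both the RefSeq and the GENCODE start. They lie at chr4:150119094-150119282 for Slc2a5, chr5:33103969-33104218 for Slc5a1 and chr2:173152823-173153047 for Pck1, all on the plus strand. Capitals mark an E-box in Slc5a1 and a cyclic AMP response element half-site in Pck1.

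Slc2a5: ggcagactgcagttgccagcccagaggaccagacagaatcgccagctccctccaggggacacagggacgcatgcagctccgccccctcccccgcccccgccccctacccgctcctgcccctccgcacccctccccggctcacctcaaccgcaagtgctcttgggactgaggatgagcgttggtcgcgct
Slc5a1: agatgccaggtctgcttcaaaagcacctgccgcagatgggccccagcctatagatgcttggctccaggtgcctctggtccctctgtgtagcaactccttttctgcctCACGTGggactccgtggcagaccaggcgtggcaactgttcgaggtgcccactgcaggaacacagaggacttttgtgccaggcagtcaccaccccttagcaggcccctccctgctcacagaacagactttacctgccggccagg
Pck1: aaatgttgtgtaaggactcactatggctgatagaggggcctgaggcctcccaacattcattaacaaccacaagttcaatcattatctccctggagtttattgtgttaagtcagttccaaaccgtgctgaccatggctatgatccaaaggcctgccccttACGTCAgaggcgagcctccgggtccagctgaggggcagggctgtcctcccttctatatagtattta

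The 250 bases before each RefSeq start were searched on both strands for 5 short motifs, and 9 of the 10 genes had such a window. The E-box, a palindrome spelled CACGTG, stood in Slc5a1 and Khk and in 6.02% of 32851 promoters. The cyclic AMP response element half-site, spelled ACGTCA, stood in Pck1 and in 6.47%. The TATA box, spelled TATAAA, stood in G6pc and in 12.37%. The matches in Khk and G6pc lie before the RefSeq start but after the start that GENCODE gives for the gene. The FOXO site was searched as GTAAACA and is in 3.17% of promoters but in no member. The HNF4 site was searched as CAAAGTCCA and is in 0.384% and again in no member, and the Slc2a5 window held none of the 5.

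Slc2a5 (ENSMUSG00000028976, chr4:150119283-150144169, plus strand) had a lowest, median and highest level of 14.0, 17.9 and 24.6 normalized CPM in the 6 control kidneys. The rilmenidine kidneys had 44.1, 25.5, 42.3 and 22.5 CPM. All 4 treated kidneys lay above the control median and 3 above the highest control, and the groups met only where control 2, the highest control, stood above rilmenidine 4. Kidneys 1 and 3 of the treated group were well above the other treated pair. The means were 18.3 ± 3.75 (SD, n = 6) and 33.6 ± 11.2 CPM (SD, n = 4), a log2 fold change of 0.88 with an SE of 0.23 and a 95% interval of 0.39 to 1.37 (edgeR quasi-likelihood adjusted p = 0.229). In fold terms the interval ran from 1.31 to 2.58. Its p was number 64 from the smallest of 10055. A two-sided exact permutation test over the 210 splits of the kidneys gave p = 0.00952, adjusted over all genes to 0.53, where the smallest p the design allows is 0.00476. The count behind these levels was 17 to 121 reads per library. Counting alone would give a coefficient of variation of 19.6% in controls, and 20.5% was observed, whereas in treated kidneys 11.7% was due to counting and 33.3% was observed.

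The difference in Slc2a5 was about as large without the libraries that stood apart. Among the 7 remaining libraries, 5 control and 2 rilmenidine, the log2 fold change was 0.85 (edgeR adjusted p = 0.331), and with log2 Malat1 as a covariate it was 0.80 (edgeR adjusted p = 1). Its unadjusted p stayed under 0.05 in all 19 alternatives tried, at 0.70 to 1.04 on the log2 scale. Keeping genes with at least 1 count in any sample gave an edgeR adjusted p of 0.00945 for Slc2a5, and 241 genes passed 0.05 there. Over the other alternatives the adjusted p of Slc2a5 was at least 0.0721.

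**Figure D1:**
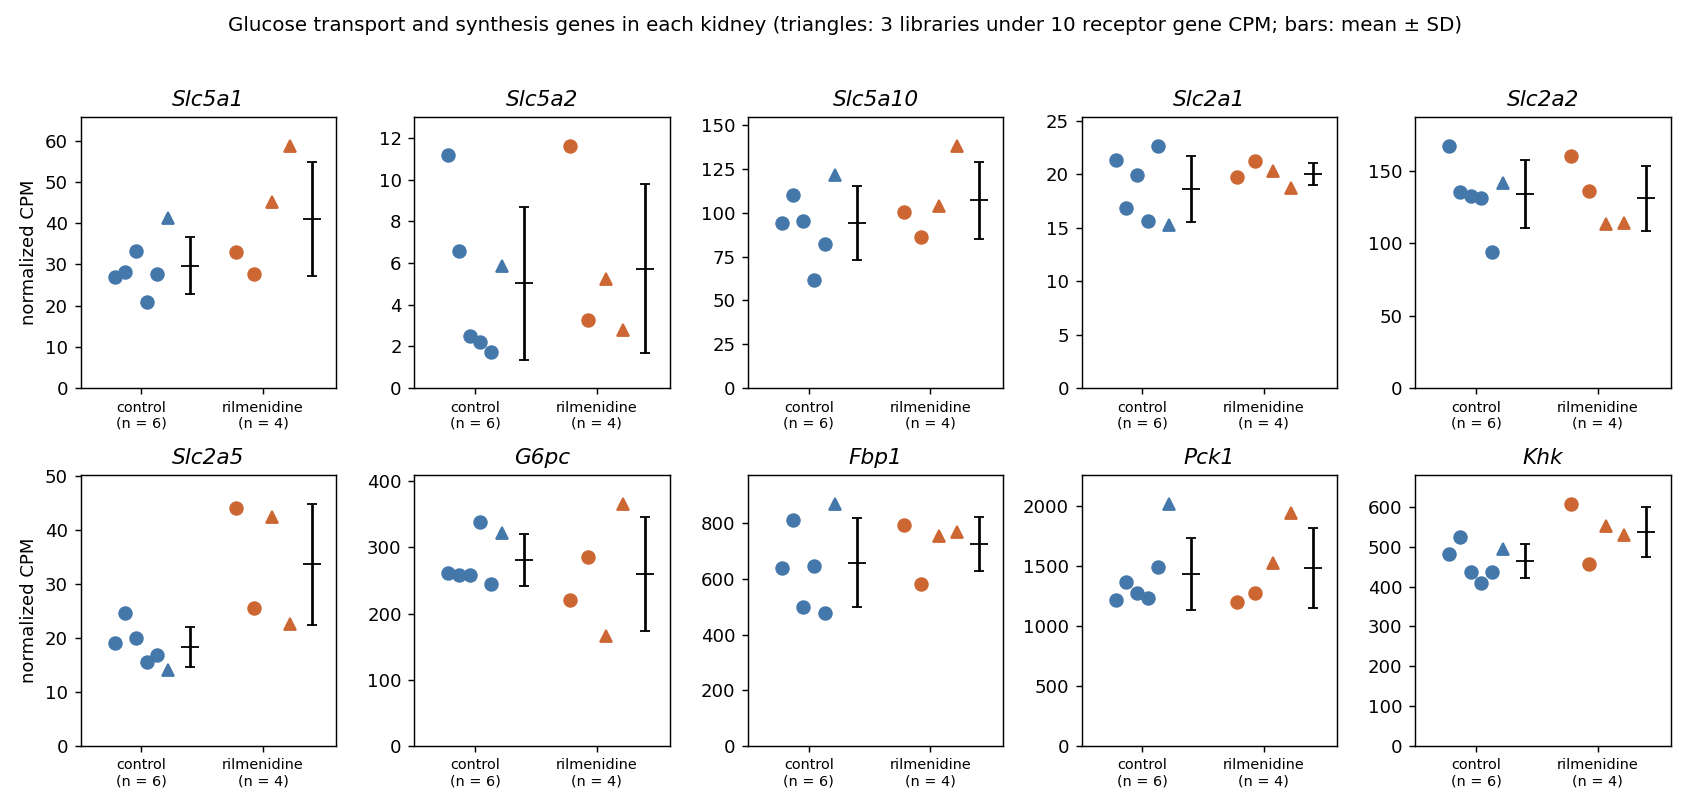
Normalized CPM (vertical axis, from 0) of the 10 genes in each kidney, with 6 control kidneys in blue and 4 rilmenidine kidneys in orange. Triangles are the 3 libraries under 10 receptor gene CPM, and black bars are the mean and SD of each group. For Slc2a5, 3 of 4 treated kidneys lie above the highest control at 24.6 CPM, while for Slc5a1 and Pck1 the triangles are the 3 highest points in both groups together.

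Of the sodium-coupled carriers, Slc5a1 (ENSMUSG00000011034, chr5:33104219-33162870, plus strand) encodes SGLT1, which recovers the glucose left in the late proximal tubule. Its lowest, median and highest control levels were 20.8, 28.0 and 41.3 CPM, and the rilmenidine kidneys had 33.1, 27.7, 45.1 and 58.7. Rilmenidine 3 and 4 lay above every control, while rilmenidine 2 lay below the control median, so the groups overlapped. The means were 29.7 ± 6.93 and 41.1 ± 13.8 CPM (SD, n = 6 and 4), and the log2 fold change was 0.47 with an SE of 0.22 and an interval of 0.01 to 0.94 (edgeR adjusted p = 0.466). The exact permutation p was 0.143. The 3 kidneys with the most Slc5a1 were the 3 libraries that stood apart, control 6 among them. Without those 3 the log2 fold change was 0.15 (edgeR adjusted p = 0.876), it was 0.06 on adding log2 library size to the fit (adjusted p = 0.996), and with log2 Malat1 it was 0.27 (adjusted p = 1). Without rilmenidine 4, the kidney with the most, it was 0.24.

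Slc5a2 (ENSMUSG00000030781, chr7:128265657-128272430, plus strand) encodes SGLT2, the main glucose carrier of the early proximal tubule and the target of the gliflozin drugs. It had only 3 to 20 counts per library. The control kidneys had 1.74, 4.17 and 11.2 CPM as lowest, median and highest, and the treated ones 11.6, 3.26, 5.25 and 2.81. The groups covered the same range, at 5.02 ± 3.65 and 5.73 ± 4.05 CPM (SD, n = 6 and 4). The log2 fold change was 0.18 with an interval of -0.90 to 1.27 (edgeR adjusted p = 0.938). Counting alone would give a coefficient of variation of 43.5% in controls and 30.6% in treated kidneys, against 72.7% and 70.8% observed. An interval this wide leaves both the direction and the size of any difference unsettled. All 500 of the last 500 exon bases of Slc5a2 are also exon of BC017158 on the opposite strand, which had 27 to 97 counts. The libraries read the 3′ ends of transcripts and the strand setting of the counting is not given in the sources used here. Whether reads of SGLT2 were lost to this overlap was not tested.

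Pdzk1ip1, whose small membrane protein MAP17 is a partner that SGLT2 needs for activity, was far more abundant by CPM than Slc5a2. It had 482 ± 92.6 CPM in controls and 662 ± 115 with rilmenidine (SD, n = 6 and 4), a log2 fold change of 0.46 with an SE of 0.16 (edgeR adjusted p = 0.316). Its treated kidneys had 831.6, 634.3, 590.5 and 592.7 CPM against a control range of 361.0 to 590.7, so that the lowest treated value fell just under the highest control. Among the 6 partners of SGLT2 and of apical sodium entry, Slc9a3 had 0 to 1 counts and Pdzk1 1 to 13, too few to test. The other 4 were tested, and their median was -0.02. At an unadjusted p under 0.05, 1 was higher and 1 lower, against 4.43% higher and 6.13% lower of all genes tested. The lower one was Sgk1, a kinase induced by aldosterone, at 51.2 ± 14.2 CPM in controls and 38.0 ± 5.69 with rilmenidine (log2 fold change -0.44, edgeR adjusted p = 0.456). Slc34a1, the brush border phosphate carrier, was level at -0.04.

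Slc5a10 (ENSMUSG00000042371, chr11:61672781-61720826, minus strand), the mannose and fructose carrier SGLT5, was the highest of the 3 SLC5 members both by CPM and by CPM per kilobase of exon. Its place above Slc5a2 holds for counted reads only, since loss of Slc5a2 reads to the overlap was not tested. Slc5a10 had 94.2 ± 21.1 CPM in controls, between 61.7 and 121.6, and 107.1 ± 21.9 with rilmenidine, between 86.3 and 138.0 (SD, n = 6 and 4). The log2 fold change was 0.18 with an interval of -0.19 to 0.56 (edgeR adjusted p = 0.763), and it was -0.07 once log2 Malat1 or log2 library size entered the fit. It was 0.04 without rilmenidine 4, 0.09 without control 4 and 0.07 in the 7 libraries left without the 3 that stood apart. The gene shares 393 exon bases with Fam83g and 4 with Grap on the opposite strand, which had 10 to 41 and 0 to 12 counts.

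Among the facilitative carriers, Slc2a2 (ENSMUSG00000027690, chr3:28697903-28731359, plus strand) encodes GLUT2, the basolateral exit for reabsorbed and newly made glucose. Its level was 133.9 ± 23.5 CPM in controls and 131.1 ± 22.3 with rilmenidine (SD, n = 6 and 4). The log2 fold change of -0.03 had an interval of -0.35 to 0.30 (edgeR adjusted p = 0.973), and its sign turned in 5 of 19 alternatives. Slc2a1 (ENSMUSG00000028645, chr4:119108711-119137983, plus strand) encodes GLUT1, found on most cell types. It had 18.6 ± 3.12 and 20.0 ± 1.02 CPM, a log2 fold change of 0.12 with an interval of -0.28 to 0.51 (edgeR adjusted p = 0.882). All 4 treated kidneys, at 18.7 to 21.2 CPM, fell inside the control range of 15.2 to 22.6.

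The 3 enzymes that are particular to glucose synthesis did not pass the test in either direction. G6pc (ENSMUSG00000078650, chr11:101367561-101377903, plus strand) encodes glucose-6-phosphatase, which frees glucose for export. Its controls lay close together, with 244.1, 260.2 and 338.7 CPM as lowest, median and highest. The treated kidneys had 219.8, 285.6, 165.8 and 366.0 CPM and held both the lowest and the highest values of the 10. The means were 280.6 ± 39.5 and 259.3 ± 86.4 CPM (SD, n = 6 and 4), with a log2 fold change of -0.11 and an interval of -0.50 to 0.27 (edgeR adjusted p = 0.884). The coefficient of variation was 14.1% in controls and 33.3% with rilmenidine, and the difference in spread was not tested. Without rilmenidine 3 the log2 fold change was 0.05.

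Pck1 (ENSMUSG00000027513, chr2:173153048-173159273, plus strand) encodes the cytosolic phosphoenolpyruvate carboxykinase, the step that commits oxaloacetate to glucose. Its controls had 1215.5, 1317.1 and 2015.0 CPM as lowest, median and highest, and its treated kidneys 1195.7, 1275.0, 1524.2 and 1938.7. Control 6, rilmenidine 4 and rilmenidine 3, the libraries that were highest in Slc5a1, were also the 3 highest here. The means were 1430.7 ± 303 and 1483.4 ± 334 CPM (SD, n = 6 and 4), a log2 fold change of 0.05 with an interval of -0.32 to 0.42 (edgeR adjusted p = 0.951). In the 7 libraries left without these 3 it was -0.09, and after adding log2 library size to the fit -0.32 (edgeR adjusted p = 0.975).

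Fbp1 (ENSMUSG00000069805, chr13:62864753-62888282, minus strand), fructose bisphosphatase, had 657.8 ± 159.5 CPM in controls and 724.9 ± 96.3 with rilmenidine (SD, n = 6 and 4). Its treated kidneys had 795.0, 582.7, 754.9 and 767.0 CPM, all inside the control range of 477.8 to 869.9. The log2 fold change was 0.14 with an SE of 0.17 (edgeR adjusted p = 0.832), and with log2 Malat1 as a covariate it was -0.19.

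Khk (ENSMUSG00000029162, chr5:30921431-30931248, plus strand) encodes ketohexokinase, which phosphorylates the fructose that GLUT5 brings in. The control kidneys had 410.1, 459.4 and 524.9 CPM as lowest, median and highest, and the treated ones 607.7, 456.7, 551.3 and 529.6. As for Slc2a5, 3 of 4 treated kidneys lay above the highest control, here kidneys 1, 3 and 4, with kidney 2 below the control median. The means were 464.3 ± 43.3 and 536.3 ± 62.5 CPM (SD, n = 6 and 4), and the log2 fold change was 0.21 with an interval of -0.05 to 0.47 (edgeR adjusted p = 0.576). The exact permutation p was 0.0714. Khk had the smallest spread of the 10 genes in controls, a coefficient of variation of 9.32%, and it was higher with rilmenidine in each of the 19 alternatives, by 0.09 to 0.28.

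**Figure D2:**
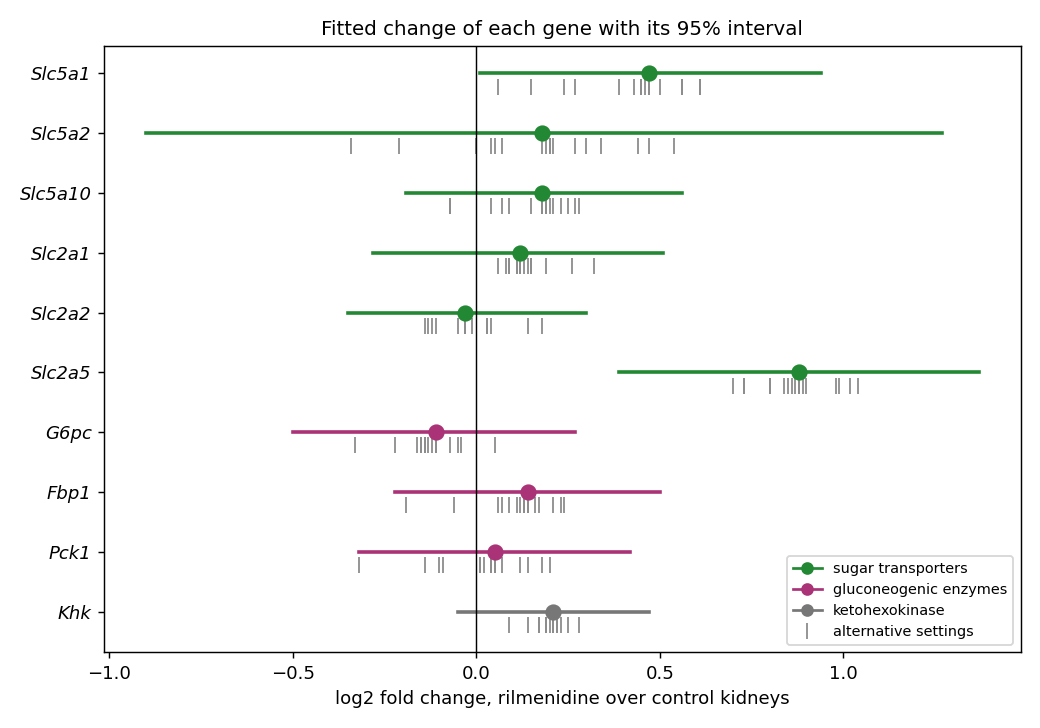
Log2 fold change of each gene, rilmenidine over control kidneys (horizontal axis), from the edgeR fit on 6 and 4 kidneys, with its 95% interval as a line and the values under the alternative settings as grey ticks. Slc2a5 (0.88, from 0.39 to 1.37) and Slc5a1 (0.47, from 0.01 to 0.94) are the pair whose intervals lie above 0.

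Set side by side, the 6 transporters had a median log2 fold change of 0.18, with 5 of 6 above 0, and the 3 gluconeogenic enzymes one of 0.05, with 2 of 3 above 0. Over all 10 genes the median was 0.16 with 8 above 0, and over all 10055 genes it was 0.00 with 5056 above 0. The mean log2 CPM of the transporters was 4.91 ± 0.25 in controls and 5.19 ± 0.21 with rilmenidine, while that of the enzymes was 9.30 ± 0.22 and 9.32 ± 0.24 (SD, n = 6 and 4). Within each class the kidneys of both groups overlapped. Of the transporters, rilmenidine 1 had the highest mean at 5.44 and control 4 the lowest at 4.55, and of the enzymes control 6 and rilmenidine 4 were highest at 9.69 and 9.68. With log2 library size in the fit the enzyme median moved to -0.22. Single kidneys moved both medians. That of the transporters was 0.08 without control 4 and 0.32 without control 1, and that of the enzymes 0.18 without control 6 and -0.10 without rilmenidine 4. These are descriptions of genes chosen with results of these data known, and the difference between classes was not tested.

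Pck1, Fbp1, Khk and G6pc were each more abundant than any transporter among the members by mean CPM and by mean CPM per kilobase. The order of mean level over the 10 kidneys was Pck1, Fbp1, Khk, G6pc, Slc2a2, Slc5a10, Slc5a1, Slc2a5, Slc2a1 and Slc5a2 by normalized CPM, from 1451.8 down to 5.30. Dividing by exon length, which a library of 3′ ends does not call for, exchanged only Slc2a2 and Slc5a10. Khk exceeded G6pc, Slc5a10 exceeded Slc5a1 and Slc2a1 exceeded Slc5a2 in 10 of 10 kidneys on both scales. Pck1 exceeded Fbp1 in 10 kidneys by CPM but in 6 per kilobase, and Slc2a5 exceeded Slc2a1 in 5 by CPM and 7 per kilobase. Slc5a1 exceeded Slc2a5 in 9 by CPM and 6 per kilobase, and Slc2a2 exceeded Slc5a10 in 9 and 0. The order of Pck1 over Fbp1 held in every kidney by CPM and rests on that scale. The order was not settled between Slc2a5 and Slc2a1, Slc5a1 and Slc2a5, or Slc2a2 and Slc5a10. The place of Slc5a2 was not settled either, since loss of its reads to the overlap with BC017158 was not tested.

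The genes that followed a member most closely over the 10 kidneys are given as a description, since they share the libraries and their depth. For Slc2a5 they were Agbl3 (Pearson r = 0.929 of log2 CPM) and Pex11g (0.881). For Slc5a1 they were Mettl7b (0.925) and Car5b (0.919), and for Khk Malsu1 (0.975) and the ribosomal protein gene Rplp0 (0.974). Pck1 went most closely with Ptms (0.912) and Slc25a25 (0.91), Fbp1 with Aga (0.965) and Ran (0.959), and G6pc with Rnf121 (0.911) and Fam19a5 (0.885). Slc2a2 was nearest to Ablim3 (0.978) and Sars2 (0.933), Slc5a2 to Atp6v0e2 (0.937) and Lyar (0.926), and Slc5a10 to Pdhx (0.92) and Pip5k1c (0.908). Mertk was second in likeness to Slc2a1 (0.859). Among pairs of members r was highest for Slc5a1 with Slc5a10 (0.859) and lowest for Slc2a5 with G6pc (-0.711), and it was 0.767 for Slc2a5 with Khk.

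Genes around these pathways were counted the same way, against the same 4.43% higher and 6.13% lower over all genes. Here higher and lower mean an unadjusted p under 0.05, and no listed gene passed the adjusted test. In fructose and polyol metabolism 7 of 8 genes were tested, 1 was higher, 0 were lower and the median was 0.05. Sord, which makes fructose from sorbitol, had 1774 ± 136 and 1650 ± 334 CPM (log2 fold change -0.10), and the aldehyde dehydrogenase Aldh1a1 was the gene with p under 0.05 (log2 fold change 0.43, edgeR adjusted p = 0.385).

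Of the other gluconeogenic genes, 15 of 15 were tested and 0 reached an unadjusted p under 0.05. Values above 0 were found in 14, against 5056 of all 10055 genes. Their median was 0.16, where the 3 gluconeogenic members had 0.05 and the 6 transporters 0.18. Slc37a4, which carries glucose-6-phosphate to G6pc, had 177 ± 36.2 and 216 ± 56.8 CPM (log2 fold change 0.28, edgeR adjusted p = 0.608). Pcx, pyruvate carboxylase, stood at 0.08 and Fbp2, the minor bisphosphatase, at 0.44 (edgeR adjusted p = 0.525). Of the shared reversible steps 7 of 9 were tested, with Tpi1 (log2 fold change 0.34, edgeR adjusted p = 0.456) and Aldoc (0.63, adjusted p = 0.451) higher at unadjusted p and 0 lower. Gapdh and Pgk1, which have many near-identical pseudogenes, had at most 13 and 10 counts and were not tested. The one-way steps of glycolysis had 7 of 12 tested, with 0 in either direction and a median of 0.15, led by Pfkm (0.44, edgeR adjusted p = 0.483).

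Of 17 other sugar and monocarboxylate carriers, all of the SLC5 and SLC2 families except Slc50a1, 11 were tested and 0 reached an unadjusted p under 0.05, with a median of -0.08. The lowest was Slc2a12 (-0.70, edgeR adjusted p = 0.487) and the highest the urate carrier Slc2a9 (0.24). Slc5a12, the lactate carrier of the early segments, had 236 ± 70.1 and 186 ± 48.3 CPM (log2 fold change -0.34, edgeR adjusted p = 0.601). Among carriers and enzymes of gluconeogenic precursors 9 of 10 were tested and 1 was higher, Slc13a2, a citrate carrier (0.37, edgeR adjusted p = 0.431), with a median of -0.16 and Slc16a1 lowest at -0.41.

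The factors known to act on these genes gave 17 of 18 tested, 0 higher and 2 lower, with a median of -0.11. Mlxipl, the sugar-sensing factor ChREBP that drives Khk and Slc2a5 in other tissues, had 78.4 ± 36.2 CPM in controls and 35.0 ± 6.40 with rilmenidine (log2 fold change -1.15 with an SE of 0.31, edgeR adjusted p = 0.232). Its control kidneys ran from 32.0 to 127.2 CPM and its treated ones had 35.4, 35.8, 26.6 and 42.2, so the groups overlapped at the low end of the controls. Crebbp was the other factor, at -0.41 (edgeR adjusted p = 0.339). Its groups did not overlap, as in 0.875% of all genes tested in the lower direction. Hnf4a and Ppargc1a, activators of the gluconeogenic enzymes, had -0.06 and -0.26 (edgeR adjusted p = 0.915 for Hnf4a and adjusted p = 0.64 for Ppargc1a), and Cebpa was the highest factor at 0.42 (edgeR adjusted p = 0.627).

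Of genes that answer to fasting and PPAR alpha, 9 of 13 were tested, 3 were higher, 0 lower, and the median was 0.29. Cyp4a10, a fatty acid hydroxylase, had 102.5 ± 29.9 CPM in controls and 191.4 ± 54.8 with rilmenidine (log2 fold change 0.92, edgeR adjusted p = 0.211), and Angptl4, a lipase inhibitor, was at 1.00 (adjusted p = 0.36). Txnip, which responds to cellular glucose, was the lowest at -0.14. Of insulin signalling 7 of 9 were tested, with Gsk3b lower (-0.38, edgeR adjusted p = 0.456), Insr at -0.35 (adjusted p = 0.524), Irs2 highest at 0.25 and a median of -0.13. Of 14 clock genes 10 were tested and 2 were lower, Arntl (-1.41, edgeR adjusted p = 0.232) and Npas2 (-1.20, adjusted p = 0.341), with a median of -0.05 and Nr1d1 highest at 0.50. The hour of collection is not given, and the part of the clock in the members' values was not tested.

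**Figure D3:**
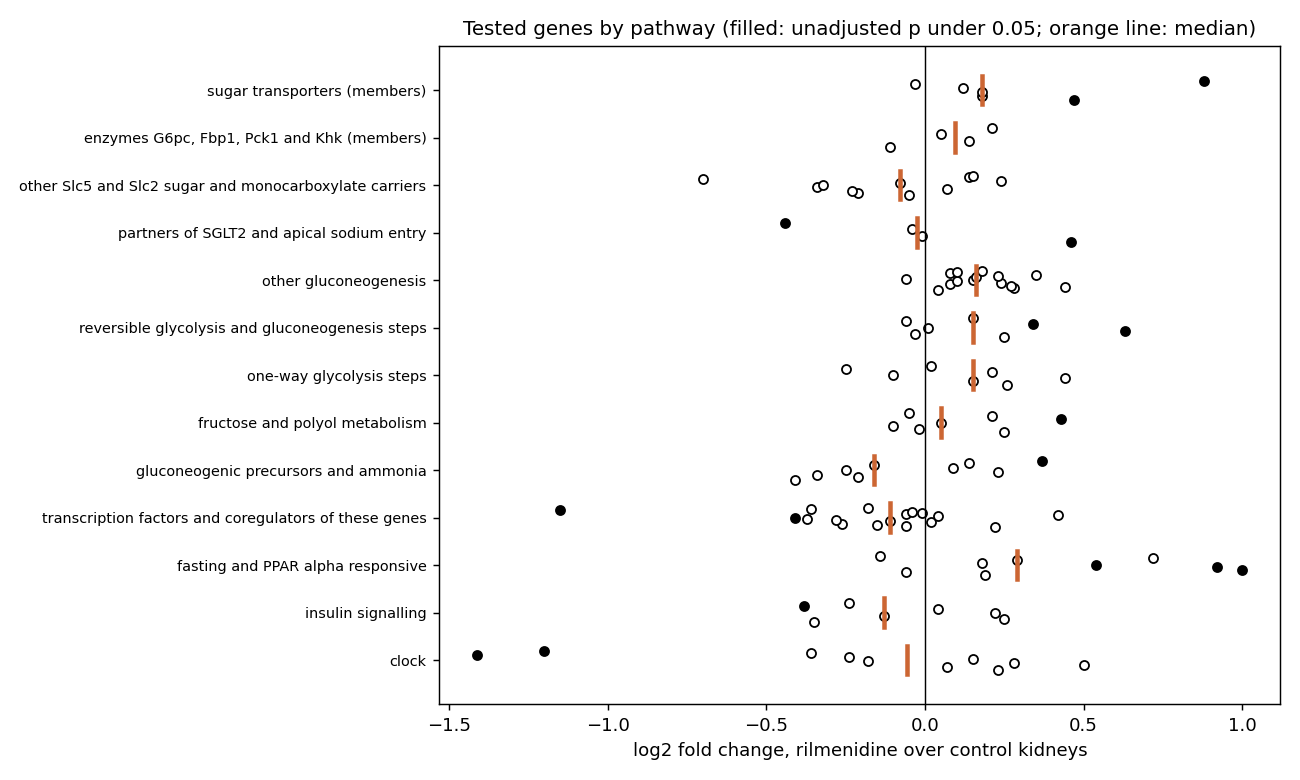
Log2 fold change, rilmenidine over control (horizontal axis), of every tested gene in the members and 11 surrounding gene lists, 1 point a gene, filled where the unadjusted p was under 0.05, with the median of each row as an orange line. The row of sugar transporters has a median of 0.18, with Slc2a5 at 0.88, and that of fasting and PPAR alpha genes one of 0.29, while none of the points passed an adjusted p of 0.05.

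Markers of nephron segments that express the members are given beside these values. Their counts stand against 4.43% higher and 6.13% lower of all genes tested at an unadjusted p under 0.05 in edgeR. Of the 10 early proximal markers 0 reached an unadjusted p under 0.05 in either direction and the median was -0.04. Of the 10 late proximal markers 2 were higher and 1 lower with a median of 0.07. Cyp7b1 was at 1.52 (edgeR adjusted p = 0.321) and Slc22a13 at 0.99 (adjusted p = 0.321), and Slc22a30 was at -1.09 (adjusted p = 0.286). Of the thick limb and distal markers 9 of 10 were tested, 3 were higher and 1 lower, with Umod at 0.61, Aqp2 at 0.58 and Slc12a3 at -0.55. The groups did not overlap in Aqp2, as in 0.796% of all genes tested in the higher direction. The podocyte, endothelial, immune, red blood cell and adipose lists had 5 of 6, 6 of 6, 5 of 7, 4 of 5 and 3 of 9 genes tested, and 0 in either direction. The summed red blood cell level ran from 980 to 8803 CPM in controls and from 2874 to 4115 with rilmenidine. Of the liver list 4 of 11 were tested and Apoh was higher (0.52, edgeR adjusted p = 0.39), with sums of 1744 to 2920 and 1668 to 2729 CPM. The nuclear RNAs Malat1 and Neat1 were lower, at -1.73 and -2.22 (edgeR adjusted p = 0.211 for Malat1 and adjusted p = 0.174 for Neat1). The part that segment makeup or nuclear RNA has in the members' values was not tested beyond the fits with Malat1 given above.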

How the data were processed

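Gene expression was measured by RNA sequencing of 3′ transcript ends in 10 kidneys (6 control, 4 rilmenidine), grouped by their labels. The deposited values are raw counts per Ensembl gene that the authors made with bcl2fastq 1.8.4, Trimmomatic 0.32, STAR 2.5.2b and featureCounts 1.5 on mm10, per the labels. The annotation release, strand setting and handling of molecular identifiers are not given in the sources used here. If duplicates were kept, counts overstate molecules, and the variation given as due to counting alone is too low. Intervals rest on the spread between libraries, in which counting, animals and amplification were not told apart. Of 43629 listed genes, 42548 were matched to GENCODE M21 (GRCm38), which gave symbols and coordinates.

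A gene was kept if 66.6% or more of the kidneys had 6 or more reads of it (10055 genes). Counts were scaled by RLE (relative log expression), and the quasi-likelihood test of edgeR 4.0.16 (R 4.3.3) was fitted to all 10 kidneys with no covariate. P-values were adjusted by Benjamini-Hochberg over all genes tested, with a threshold of 0.05. The study's methods name edgeR but not the kind of test. The script was tested on simulated data. Libraries held 863605 to 3232063 counts, which limits the precision of low genes. Levels are CPM on RLE-scaled library sizes, and logarithms use a prior count of 2. The level of a single gene was also compared by an exact permutation test, two-sided, using each of the 210 splits.

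Members and gene lists were chosen with earlier results of these data known. The genes named are the members, of each list the 2 with the smallest p and the largest and smallest change, a few chosen partners and factors, and the 2 genes most correlated with each member. Some genes that this rule takes are not reported here. Slc34a1, Slc9a3, Pdzk1, Gapdh, Pgk1, Ahsg, Fga and genes overlapping a member stand outside that rule and were chosen after their values were seen. Alternatives were TMM scaling, a looser filter (1 count in any sample) and a stricter one (10 in every sample), DESeq2 1.42.0, edgeR's likelihood ratio test, a covariate of log2 Malat1 or log2 library size, the 7 libraries with 10 or more receptor gene CPM, a replicate block, a threshold of 0.1, and leaving out each kidney.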

Additional observations from a re-analysis of the deposited data

Results flagged for a closer look

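Pck1 in control 6 stood at 2015.0 normalized CPM, apart from the other 5 control kidneys, whose highest was 1487.1. Its gap to the nearest kidney was 0.66 of the group's range, above the critical value of 0.625 for 6 samples. It was the only such value among the 20 gene-by-group sets examined, and chance alone would mark about 1 in 20. Control 6 is 1 of the 3 most deeply read libraries, and rilmenidine 4, another of them, had 1938.7 CPM. Without control 6 the log2 fold change of Pck1 was 0.18.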

How the results depend on the processing

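Slc2a5, Slc5a1, Slc2a1 and Khk kept their direction in all 19 alternatives, while the other 6 members did not. The count of genes with an adjusted p under 0.05 was 0 here and also 0 at a threshold of 0.1, but 60 with DESeq2, 241 with at least 1 count in any sample, 44 with the likelihood ratio test and 3 with the replicate block. It ran from 0 to 37 on leaving out a kidney, with 33 without control 2, 37 without control 6 and 6 without rilmenidine 1. Of the members, 1 (Slc2a5) passed an adjusted p of 0.05 with at least 1 count in any sample, the setting that called 241 genes. On leaving out any kidney 0 members did. The count of members at an unadjusted p under 0.05 went from 2 to 1 with DESeq2, in the 7 libraries with 10 or more receptor gene CPM, and with log2 Malat1 or log2 library size as a covariate, and lay between 1 and 3 on leaving out a kidney. It was 1 without any of controls 1, 2, 4 and 5 or rilmenidine 3 and 4. The share of all genes under that unadjusted p in each alternative is not reported here. The enzyme median moved to -0.22 with log2 library size and ran from -0.10 to 0.18 on leaving out a kidney, and the transporter median from 0.08 to 0.32.

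Signs turned as follows on the log2 scale. With log2 Malat1, Fbp1 was -0.19, Pck1 -0.14, Slc5a10 -0.07 and Slc5a2 -0.21. With log2 library size, Fbp1 was -0.06, Pck1 -0.32, Slc2a2 0.14 and Slc5a10 -0.07. In the 7 libraries, Pck1 was -0.09 and Slc2a2 0.18. On leaving out a kidney, G6pc ran from -0.33 to 0.05, Pck1 from -0.10 to 0.18, Slc2a2 from -0.14 to 0.04 and Slc5a2 from -0.34 to 0.47, the last being -0.34 without rilmenidine 1. The causes were not tested, and none of these values was past the threshold.

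Replicate numbers are not said to mark shared animals, and same-numbered kidneys had deviations correlated at 0.0762, 0.0775, -0.0768 and -0.00704, none highest with its own number. With the replicate block Slc2a5 was 0.70 (adjusted p = 0.443). Control levels under TMM or plain library size stayed within 1 SD in 20 of 20 cases. Slc5a2 had the fewest counts of the members, 3 to 20, and it could not be fitted in 2 of the 19 alternatives, whose filters removed it. Its CPM, which is scaled to library size, was also the lowest of the members. Any loss of its reads to the overlap with BC017158 was not tested.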
